A study of Homo sapiens with 6 samples.

Results

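The open chromatin around 10 genes of the bone morphogenetic protein (BMP) pathway was examined in naive human embryonic stem (nES) cells with and without dimethyl α-ketoglutarate (dm-αKG), a cell-permeable form of α-ketoglutarate. The genes were the ligands BMP2 and BMP4, the type I receptor BMPR1A, the signal transducers SMAD1 and SMAD5, the pseudoreceptor BAMBI, and the target genes ID1, ID2, ID3 and ID4. Every peak of the count table that lay inside 1 of these genes or within 50 kb of it was taken, which gave 184 of the 171517 peaks. Peaks were assigned to the genes by position only and by no measured value, but the genes were chosen with earlier results of these data known. Of the 184 peaks, 35 were promoter peaks, centred at most 1 kb from a transcript start of the gene, and 149 were not.

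The cells were of the established human embryonic stem cell line H9 and were grown in tt2iLGö, the medium that holds such cells in the naive state. The 3 dm-αKG libraries came from cells given 4 mM dm-αKG for 24 h, and the 3 control libraries from cells given the solvent DMSO per the labels, or no dm-αKG per the methods of the paper. All 6 cultures shared the same medium, with its MEK, GSK3 and protein kinase C inhibitors and LIF, and had been separated from their mouse feeder cells before plating on laminin. The libraries were biological replicates of 1 line in an experiment performed once. The labels place the dm-αKG after a first culture on laminin, whereas the methods describe it as present from plating.

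BMP ligands bind pairs of type I and type II receptor kinases, which phosphorylate SMAD1, SMAD5 and SMAD9. These join SMAD4, enter the nucleus and bind GC-rich sites and SMAD boxes near target genes, of which the ID genes are the classical ones. ID proteins bind basic helix-loop-helix transcription factors and keep them off DNA, and BAMBI dampens the signal at the receptor. BMP signalling is known for its part in trophoblast and germ layer decisions of pluripotent cells.

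ATAC-seq counts the insertions of a transposase, so the count of a peak rises with its accessibility. Counts in peaks lay between 13025674 and 26828622 per library. The correlation of log2 normalized counts between libraries of 1 group lay between 0.942 and 0.966, and between groups between 0.911 and 0.928. All 15 marker genes that were checked had a promoter peak, with control levels of 200.1 to 746 normalized counts for 6 naive markers, 113 to 469 for 3 primed markers, 150 to 471 for 3 trophoblast markers and 112 to 198 for 3 fibroblast markers. The mean naive levels all lay above the fibroblast ones. The lowest naive one (DNMT3L, 200.1 ± 19.8, SD, n = 3) and the highest fibroblast one (COL1A2, 198 ± 11.3) differed by less than the spread between libraries. The naive range overlapped those of the primed and trophoblast markers, so promoter accessibility gave no check of naive against those states. In a bulk assay, a lower count in every cell and a smaller share of cells with an open site cannot be told apart.

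The sequences of 6 peaks are shown first because these were the peaks near the 10 genes that passed both the test and the fold threshold, and all 6 were less accessible with dm-αKG. Each is on the plus strand of hg38 and runs 5′ to 3′, with the BMP2 peak cut to its central 200 bp. Capitals mark a SMAD box (CAGACA) in the second BMP4 and the ID1 peak, where the BMP4 box is on the minus strand, and an AP-1 site (TGANTCA) in the SMAD5 peak.
BMP2 chr20:6813008-6813207: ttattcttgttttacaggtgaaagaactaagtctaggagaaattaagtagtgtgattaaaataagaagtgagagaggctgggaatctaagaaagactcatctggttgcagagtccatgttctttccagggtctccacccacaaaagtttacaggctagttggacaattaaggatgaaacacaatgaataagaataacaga
BMP4 chr14:53982705-53982904: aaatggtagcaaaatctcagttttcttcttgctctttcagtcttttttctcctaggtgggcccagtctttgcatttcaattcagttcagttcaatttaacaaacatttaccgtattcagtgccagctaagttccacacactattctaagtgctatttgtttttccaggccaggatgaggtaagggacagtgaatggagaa
BMP4 chr14:54007781-54007992: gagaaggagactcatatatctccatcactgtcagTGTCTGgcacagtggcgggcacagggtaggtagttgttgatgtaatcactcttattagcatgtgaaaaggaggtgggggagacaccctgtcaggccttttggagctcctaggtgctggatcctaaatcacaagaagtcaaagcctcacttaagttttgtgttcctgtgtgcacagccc
BMPR1A chr10:86714875-86715074: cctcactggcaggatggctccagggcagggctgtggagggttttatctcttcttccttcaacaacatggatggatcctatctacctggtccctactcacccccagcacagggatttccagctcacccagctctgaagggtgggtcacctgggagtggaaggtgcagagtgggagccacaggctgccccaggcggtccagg
SMAD5 chr5:136202811-136203039: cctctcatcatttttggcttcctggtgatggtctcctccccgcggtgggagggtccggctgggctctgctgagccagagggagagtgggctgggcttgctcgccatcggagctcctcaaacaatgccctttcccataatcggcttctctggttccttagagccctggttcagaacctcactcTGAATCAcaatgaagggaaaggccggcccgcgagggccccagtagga
ID1 chr20:31581399-31581604: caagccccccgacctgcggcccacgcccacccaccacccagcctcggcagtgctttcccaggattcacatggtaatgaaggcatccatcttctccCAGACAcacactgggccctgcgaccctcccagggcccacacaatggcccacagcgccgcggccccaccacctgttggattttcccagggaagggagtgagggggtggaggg

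A composite BMP response element, in which a GC site of SMAD1 and SMAD5 is followed after a spacer of fixed length by the core of a SMAD box, was present in 6 of the 184 peaks (3.26%), against 369 of all 171517 peaks (0.215%). All 6 lay near ID genes, in 6 of their 78 peaks (7.69%), and each of the 4 ID genes had at least 1. None of the 106 peaks of the other 6 genes held it, and of 650 peaks near other genes of the pathway 1 did (0.154%), near SMAD9. ID genes are the classical BMP targets, and the element is named for the response to BMP. Its presence near them is therefore a description and not an independent result. In the search the first part was GRCGNC, R being A or G and N any base, so it could differ from GGCGCC. The core was GTCT. The 6 sites are shown on the strand that carries the element, with both parts in capitals and the spacer in lower case. Distances are those of the centre of the peak.
ID1, 990 bp upstream of the transcript start: GGCGTCtaacgGTCT
ID1, 3347 bp downstream of the start: GGCGCCtggctGTCT
ID2, 25 bp from a transcript start: GGCGCCagagaGTCT
ID3, 2996 bp upstream: GGCGCCaggctGTCT
ID4, 32515 bp upstream: GGCGCCaggcaGTCT
ID4, 1783 bp downstream, in an intron: GGCGCCagttaGTCT

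In 5 of the 6 sites the first part was the palindrome GGCGCC itself, and the upstream ID1 site had another letter at 1 position, where the search allowed any base. The whole peaks around both ID1 sites and both members of an ID3 pair that moved in opposite directions are printed next, since the results on these genes return to them. Here capitals mark GC sites (GGCGCC), composite elements, SMAD boxes and TEAD sites (GGAATG), on either strand. In the downstream ID1 peak the composite element contains a GC site and overlaps a SMAD box, so that they form 1 run of capitals.
ID1 chr20:31604158-31604430: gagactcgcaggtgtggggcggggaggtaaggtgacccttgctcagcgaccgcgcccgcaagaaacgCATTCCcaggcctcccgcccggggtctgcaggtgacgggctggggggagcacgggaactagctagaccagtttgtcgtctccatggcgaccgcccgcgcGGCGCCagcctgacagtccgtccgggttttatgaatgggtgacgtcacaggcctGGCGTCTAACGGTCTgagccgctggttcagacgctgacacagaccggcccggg
ID1 chr20:31608526-31608747: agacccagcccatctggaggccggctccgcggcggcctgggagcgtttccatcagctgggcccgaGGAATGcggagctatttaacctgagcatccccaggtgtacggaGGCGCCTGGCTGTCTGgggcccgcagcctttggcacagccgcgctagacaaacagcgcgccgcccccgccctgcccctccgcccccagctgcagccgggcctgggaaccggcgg
ID3 chr1:23554976-23555180: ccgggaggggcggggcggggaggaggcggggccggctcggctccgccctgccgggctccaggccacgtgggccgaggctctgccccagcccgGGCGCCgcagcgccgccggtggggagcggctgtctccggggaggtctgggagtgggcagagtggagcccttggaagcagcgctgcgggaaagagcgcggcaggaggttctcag
ID3 chr1:23556023-23556237: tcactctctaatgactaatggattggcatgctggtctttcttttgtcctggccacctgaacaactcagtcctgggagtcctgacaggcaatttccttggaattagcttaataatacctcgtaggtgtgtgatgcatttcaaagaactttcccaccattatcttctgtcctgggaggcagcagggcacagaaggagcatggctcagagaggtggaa

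Over 200 bp around the centre of each peak and on both strands, the GC site was found in 35 of the 184 peaks (19%), against 10.6% of all peaks. The share was 25.6% at the ID genes (20 of 78), 14.2% at the other 6 genes (15 of 106) and 13.5% near other genes of the pathway (88 of 650). The SMAD box alone was about as frequent near the 10 genes (14.1%) as over all peaks (14.9%). AP-1 sites were found in 3.8% against 6.33%, OCT octamers (ATGCAAAT) in 1.63% against 2.28%, and TEAD sites in 17.9% against 14.6%. The median GC content was 58.5% near the 10 genes and 55.5% over all peaks. It was 60.2% at the ID genes, 55.5% at the other 6 genes and 59% near other genes of the pathway. The GC site holds only G and C, and whether its share follows GC content was not tested. A match describes the letters in the window, and neighbouring peaks of 1 gene are not independent.

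Accessibility near the 10 genes moved in both directions, and the 6 peaks that passed both the test and the fold threshold were less accessible. Whether these few calls differ from the shares over all peaks was not tested. At an adjusted p below 0.01 and more than a 2-fold change, 6 of the 184 peaks were called less accessible with dm-αKG (3.26%, against 1.96% of all peaks) and 0 more accessible (0.782% of all peaks). DESeq2 gave the same counts of 6 and 0, and 1 peak had an unadjusted p below 0.05 with a gain of more than 2-fold. The 0 became 2 when control replicate 2 was left out, and 1 when any other library except control replicate 1 was. At the same adjusted p without the fold threshold, 20 peaks were lower (10.9%, against 6.54% of all peaks) and 5 were higher (2.72%, against 3.34%), by edgeR's quasi-likelihood test with Benjamini-Hochberg adjustment over all peaks. For 40 peaks all dm-αKG libraries lay below all control libraries (21.7%, against 16.9%), and for 21 they lay above (11.4%, against 15.5%). When control replicate 2 or dm-αKG replicate 1 was left out, 13 and 12 peaks were lower, and 3 were higher when control replicate 3 or dm-αKG replicate 3 was. DESeq2 called fewer, 13 lower (against 4.1% of all peaks) and 3 higher (against 1.56%), and at an adjusted p below 0.05 edgeR gave 27 lower (against 10.5%) and 10 higher (against 7.43%). At 0.01, 159 peaks did not pass, and 64 of the 184 had an unadjusted p below 0.05 (30.7% of all peaks had one). The median log2 fold change was -0.02, and it was 0.01 over all peaks.

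**Figure D1:**
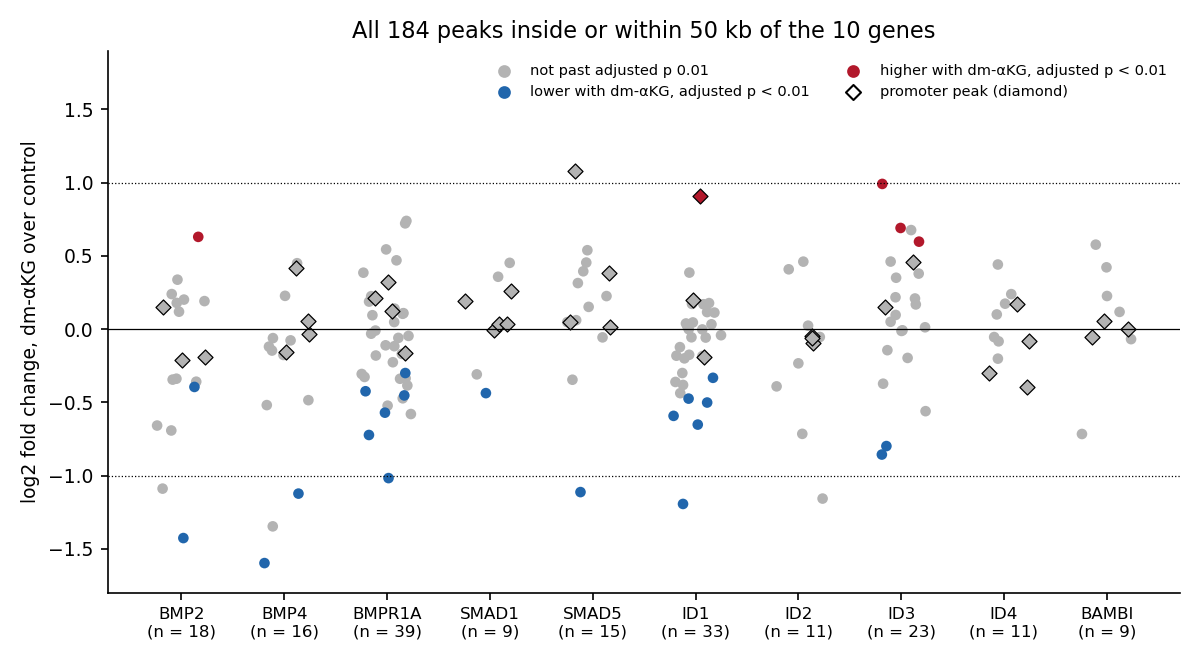
Log2 fold change (dm-αKG over control, y axis) of each of the 184 peaks by gene (x axis, number of peaks in brackets). Blue and red points passed an adjusted p below 0.01, diamonds are promoter peaks and dotted lines mark a 2-fold change. The 6 blue points beyond the lower line belong to BMP2, BMP4, BMPR1A, SMAD5 and ID1, and the single promoter peak that passed is the red diamond of ID1.

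The lower peaks lay outside the promoters of the 10 genes. Of the 35 promoter peaks 0 were lower and 1 was higher (2.86%). DESeq2 also gave 0 lower and 1 higher, and 3 promoter peaks were lower at an unadjusted p below 0.05. Over all promoter peaks of protein-coding genes, only 2.08% were lower and 4.47% higher. With shares this low, 0 lower of 35 does not set the promoters of the 10 genes apart from other promoters. Of the 149 other peaks 20 were lower (13.4%) and 4 higher (2.68%). Some of the 149 are promoter peaks of neighbouring genes. Of the 47 peaks at a promoter of any protein-coding gene, 1 was lower (2.13%, the one near MMRN2 described with BMPR1A) and 1 higher (2.13%), where 2.08% of all such peaks were lower and 4.47% higher. Of the 137 peaks that were at no promoter of a protein-coding gene 19 were lower (13.9%) and 4 higher (2.92%), where the shares over all such peaks were 8.42% and 2.86%. Upstream of the genes 8 of 58 peaks were lower and 0 higher, downstream 9 of 70 were lower and 3 higher, and in introns 3 of 17 were lower. Many of these peaks could belong to a neighbour, since 67 of the 184 were nearer to the transcript start of another protein-coding gene, and 9 of the 20 lower peaks were among those 67. Near the limit of 50 kb, the outermost peaks inside it were at BMP2 (49553 bp from the gene, log2 fold change -0.34), BAMBI (49091 bp, 0.23) and BMP4 (49020 bp, -1.12), and the first ones outside it were at BMPR1A (50107 bp, 0.20), SMAD5 (50113 bp, 0.04) and ID4 (50131 bp, 0.05).

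The ligand gene BMP2, whose protein is a secreted BMP that signals through BMPR1A, had 18 peaks, of which 2 were lower and 1 higher. The called peak, at chr20:6812887-6813328 and 45.4 kb downstream of the transcript start, had 186, 186 and 193 normalized counts in the controls and 75.3, 60.3 and 71.8 with dm-αKG. The groups were far apart relative to the spread in either (log2 fold change -1.43 ± 0.15 SE, edgeR adjusted p = 2.86e-12). Only 87 bp away lay the strongest peak near BMP2, at chr20:6812597-6812799, with 306, 344 and 377 counts in the controls and 234, 242 and 314 with dm-αKG. Here the third dm-αKG library reached into the control range, and the change was smaller (-0.39 ± 0.10, edgeR adjusted p = 0.00282). This call was lost with DESeq2 and in the 4 fits that dropped control replicate 2 or 3 or dm-αKG replicate 1 or 2 (adjusted p up to 0.0769).

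Close to BMP2 itself the direction was the other one. A peak in the coding part of an exon, 2775 bp from the start (chr20:6770359-6770564), had 84.1, 61.7 and 81.4 counts in the controls and 105, 103 and 147 with dm-αKG, with no overlap (0.63 ± 0.17, edgeR adjusted p = 0.00603). Its call was lost with DESeq2 and when control replicate 2 (adjusted p = 0.0772), control replicate 3 or dm-αKG replicate 3 was left out. The strongest promoter peak, 54 bp from the start, did not pass (100.2, 105 and 83.8 against 79.6, 91.1 and 86.8 counts, -0.19 ± 0.17, adjusted p = 0.484).

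BMP4, the other ligand and an inducer of trophoblast and mesoderm in culture, had 16 peaks, of which 2 were lower and 0 higher. Both lower peaks lay far upstream and both were called. The first, at chr14:53982705-53982904 and 24.0 kb from the start, had 84.1, 100.3 and 88.7 counts in the controls and 32.3, 28.2 and 28.4 with dm-αKG. This was the largest loss near the 10 genes among peaks that passed (-1.60 ± 0.22, edgeR adjusted p = 1.86e-08), and the authors' peak list of the dm-αKG samples did not contain the peak. The second, at chr14:54007781-54007992 and 49.1 kb upstream, had 58.1, 93.7 and 71.7 counts against 38.0, 43.6 and 18.0. The groups did not overlap, but the spread was wide (-1.12 ± 0.24, edgeR adjusted p = 2.05e-04), and without control replicate 2 the peak missed the threshold (-0.91, adjusted p = 0.0182).

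The BMP4 promoter itself changed little. Its strongest peak, at the transcript start (chr14:53956552-53957088), had 473, 515 and 489.5 counts in the controls and 441, 429.7 and 455 with dm-αKG. All dm-αKG libraries lay below the controls, but the difference did not pass (-0.16 ± 0.08, edgeR adjusted p = 0.164).

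BMPR1A, the type I receptor that BMP2 and BMP4 share, spans a long gene and had 39 peaks, the most of the 10 genes. Of these 6 were lower and 0 higher. The called peak, at chr10:86714875-86715074, lay 41.6 kb upstream in LDB3, a gene of muscle Z-discs whose transcript start was nearer, and had 119.8, 133 and 125 counts against 63.8, 75.7 and 44.9 (absent from the dm-αKG list, -1.02 ± 0.18, edgeR adjusted p = 6.27e-06). A stronger peak 904 bp away, at chr10:86715979-86716186, moved the same way, with 397, 389 and 367 counts against 276, 244 and 251 (-0.57 ± 0.09, edgeR adjusted p = 2.26e-06). In both, every dm-αKG library lay below every control.

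Within BMPR1A, an intronic peak 14.2 kb from the start (chr10:86770792-86770998) had 241, 217 and 194 counts in the controls and 129.8, 135 and 133 with dm-αKG (-0.72 ± 0.13, edgeR adjusted p = 9.37e-06). The strongest peak of the gene, in an intron far downstream (chr10:86868416-86868626), had 563, 563 and 534 counts against 424, 448 and 489 (-0.30 ± 0.08, edgeR adjusted p = 0.00354). A peak 256 bp from a transcript start of MMRN2, a neighbouring gene (chr10:86954414-86954616), had 556, 507 and 536 counts against 377, 416 and 377 (-0.45 ± 0.08, edgeR adjusted p = 1.38e-05). No group overlapped in these peaks, but the strongest one lost its call with DESeq2 and in 4 of the 6 fits that left out 1 library (adjusted p up to 0.0607). The remaining lower peak was intronic (-0.42) and lost its call in 10 of 13 refits, DESeq2 and every fit without 1 library included. At the BMPR1A promoter, neighbouring peaks went different ways and did not pass. The one 179 bp upstream of the start had 222, 231 and 196 counts in the controls and 259.6, 239 and 254 with dm-αKG (0.21 ± 0.11, adjusted p = 0.176). The one 18 bp downstream, of nearly the same level, had 209, 212 and 229.6 against 210.1, 176 and 189 (-0.16 ± 0.12, adjusted p = 0.361).

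SMAD1 and SMAD5 encode the transcription factors that the receptor activates. SMAD1 had 9 peaks, 1 of them lower. That peak, 44.1 kb upstream (chr4:145436969-145437176), had 235, 237 and 253 counts in the controls and 151, 157 and 241 with dm-αKG. The third dm-αKG library lay in the control range, and the call (-0.44 ± 0.12, edgeR adjusted p = 0.0066) was lost in 5 of the 6 fits that left out 1 library (all but that without dm-αKG replicate 3) and with DESeq2, with adjusted p up to 0.167.

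SMAD5 had 15 peaks, 1 of them lower and called, at chr5:136202811-136203039, 28.5 kb from the nearest transcript start of SMAD5, beyond its end and nearer to SMIM32. It had 169, 141 and 179.8 counts in the controls and 59.5, 82.1 and 91.3 with dm-αKG, with no overlap (-1.11 ± 0.16, edgeR adjusted p = 9.28e-08). A peak only 27 bp away showed no such difference (0.05, adjusted p = 0.955). At an internal start of SMAD5 a weak promoter peak had the largest positive log2 fold change of the 184 peaks (1.08 ± 0.37), at 8.9, 23.8 and 8.5 counts against 23.7, 46.2 and 22.5, where the groups overlapped and the test was not passed (adjusted p = 0.0294). The strongest promoter peaks of SMAD1 (-0.01 ± 0.12, adjusted p = 0.976) and SMAD5 (0.02 ± 0.10, adjusted p = 0.939) were close to no change.

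BAMBI, which resembles a type I receptor without a kinase and is itself induced by BMP, had 9 peaks and 0 that passed, by edgeR or DESeq2, with 1 at an unadjusted p below 0.05. The strongest, 8575 bp upstream, had 301, 261 and 289 counts in the controls and 294, 345 and 284 with dm-αKG, and the groups overlapped (0.12 ± 0.10, edgeR adjusted p = 0.446). Its promoter peak did not differ beyond the spread either (169.9, 187 and 153 against 164, 195 and 178 counts, 0.05 ± 0.13, adjusted p = 0.818). The peak nearest to the threshold, 32.7 kb upstream, had 65.3, 61.7 and 65.6 counts against 28.7, 37.2 and 56.9 (-0.72 ± 0.23, adjusted p = 0.0225).

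**Figure D2:**
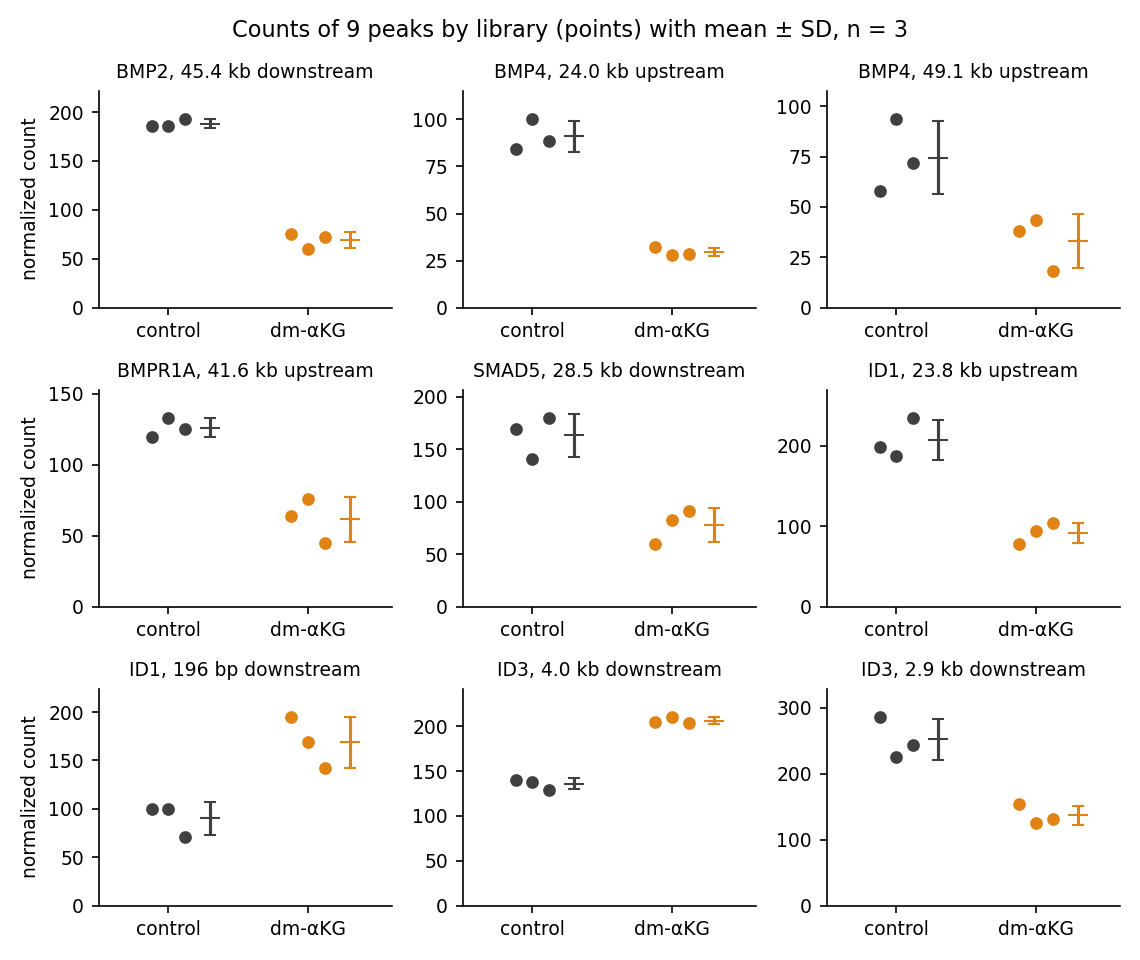
Normalized counts (y axis, from 0) of 9 peaks in each library, 3 control (black) and 3 dm-αKG (orange), with the mean ± SD beside them. The first 6 panels are the called peaks and the last 3 are the ID1 peak in its first exon and the ID3 pair. The distance in each title is that from the nearest transcript start of the gene, and in no panel do the groups overlap.

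ID1, the most studied BMP target of the family, had 33 peaks, of which 6 were lower and 1 higher. The called peak, at chr20:31581399-31581604 and 23.8 kb upstream, had 199, 187 and 234 counts in the controls and 78.2, 93.6 and 103 with dm-αKG (-1.19 ± 0.14, edgeR adjusted p = 2.74e-10). A stronger peak 4202 bp nearer to the gene, at chr20:31585807-31586014, had 453, 455 and 482 counts against 283, 308 and 339.8 (-0.59 ± 0.09, edgeR adjusted p = 1.79e-07). Both were clearly separated between groups. The called peak was nearer to a transcript start of HM13, a signal peptide peptidase gene, whereas the stronger one was nearest to ID1.

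Inside ID1 the change was opposite. A peak over the coding part of the first exon, 196 bp from the start (chr20:31605383-31605589), had 100.2, 100.3 and 70.5 counts in the controls and 195, 169 and 142 with dm-αKG, so that all dm-αKG libraries were above all controls. It was the only one of the 35 promoter peaks to pass (0.91 ± 0.15, edgeR adjusted p = 2.80e-06). The neighbouring promoter peak, 89 bp away, differed by less (292.5, 239 and 304 against 332, 323 and 290.4 counts, 0.20 ± 0.10, adjusted p = 0.163).

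The composite BMP response elements of ID1 lay on either side of the gene in strongly open peaks. The upstream one, printed above, had 510, 593 and 517 counts in the controls and 453, 525 and 449 with dm-αKG, and its groups overlapped (-0.19 ± 0.08, edgeR adjusted p = 0.083). The downstream one had 636, 638 and 613 counts against 465, 555 and 488, with no overlap, and was lower (-0.33 ± 0.08, edgeR adjusted p = 7.61e-04), although not without dm-αKG replicate 1 (adjusted p = 0.0289). The 3 further lower peaks of ID1, of which 2 lay 5573 and 6470 bp downstream and 1 lay 27.3 kb upstream, had log2 fold changes of -0.50, -0.47 and -0.65. All 3 lost their call with DESeq2, and in 5, 3 and 8 of 13 refits in all (adjusted p up to 0.136). The strongest peak near any of the 10 genes, 9456 bp upstream of ID1, had 1257, 1171 and 1230.4 counts against 1015, 1126 and 1108 (-0.18 ± 0.06), and did not pass (adjusted p = 0.0359).

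**Figure D3:**
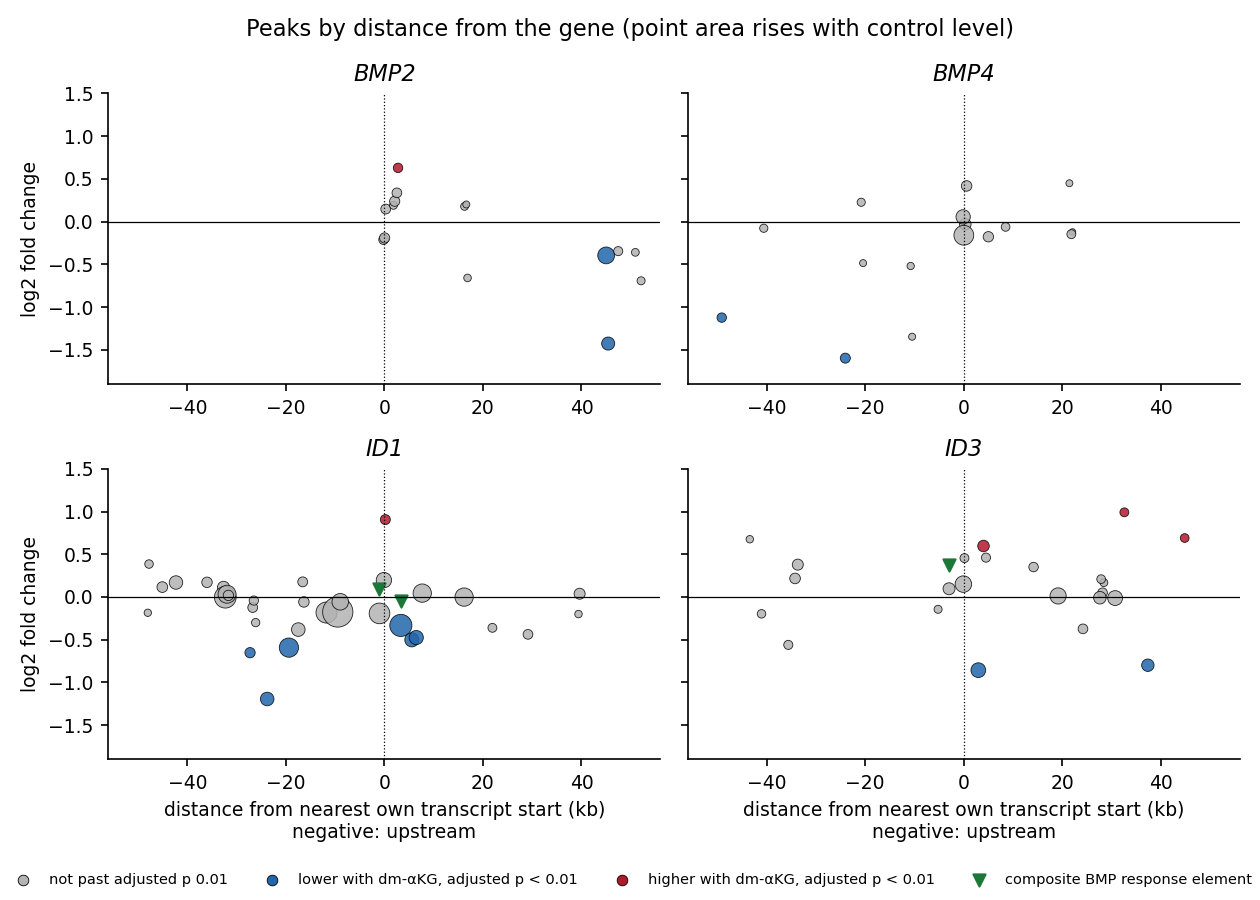
Log2 fold change (y axis) of the peaks of BMP2, BMP4, ID1 and ID3 against the distance in kb from the nearest transcript start of the gene (x axis, upstream negative), with the area of a point rising with its control level. The BMP2 peaks 61.3, 61.6 and 62.2 kb downstream, which did not pass, lie beyond the x axis and are not shown. Blue is lower and red higher with dm-αKG at an adjusted p below 0.01, and green triangles sit above peaks with a composite BMP response element. At ID1 the red peak lies 196 bp from the start between blue peaks on both sides, and at ID3 a red and a blue peak lie 3998 and 2946 bp downstream.

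ID3 had 23 peaks, of which 2 were lower and 3 higher, or 2 and 2 with DESeq2. Beyond the end of the gene, 2 peaks with 842 bp between them moved apart. The nearer one, at chr1:23556023-23556237 and 2946 bp from the start, had 286, 225 and 244 counts in the controls and 153, 126 and 132 with dm-αKG (-0.86 ± 0.12, edgeR adjusted p = 7.04e-08). The other, at chr1:23554976-23555180, had 140.4, 138 and 129 counts against 204, 210.4 and 204 (0.60 ± 0.13, edgeR adjusted p = 2.66e-04). Neither overlapped between groups. In the sequences printed above, the peak that rose is 78% GC with 1 GC site, and the peak that fell is 47.4% GC and holds none of the motifs searched. Among the other ID3 peaks that passed, the higher ones held 58.5% and 56.5% GC over 200 bp and the lower one 60%. Over the 10 genes the medians were 67% for the 5 higher and 52.2% for the 20 lower peaks.

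The other ID3 peaks that passed lay within the body of E2F2, a cell cycle transcription factor gene downstream of ID3. A peak at chr1:23526394-23526593 had 54.6, 67.4 and 63.2 counts in the controls and 113, 113 and 147 with dm-αKG (0.99 ± 0.18, edgeR adjusted p = 1.13e-05), and it was absent from the authors' control list. A peak at chr1:23521624-23521830 had 176, 170.2 and 151 counts against 78.2, 112 and 105 (-0.80 ± 0.15, edgeR adjusted p = 3.25e-05). The remaining higher peak there had a log2 fold change of 0.69 and lost its call with DESeq2 and in 4 of the 6 fits without 1 library (adjusted p up to 0.0696). The ID3 promoter peak had 332, 315 and 341 counts in the controls and 341, 386 and 374 with dm-αKG, above the controls but not past the test (0.15 ± 0.09, adjusted p = 0.257), and the peak with its composite element had 150 ± 14.9 (SD, n = 3) and 159 ± 5.14 counts (0.10 ± 0.13, adjusted p = 0.669).

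ID2 and ID4, with 11 peaks each, had 0 that passed by edgeR or DESeq2, and 5 and 2 with an unadjusted p below 0.05. The ID2 promoter, the most accessible of the 10 per 100 bp of peak, had 565, 527 and 487 counts in the controls and 479.7, 534 and 509 with dm-αKG (-0.06 ± 0.08, edgeR adjusted p = 0.625), with overlap. The peak with the ID2 composite element had 416 ± 26.5 and 402 ± 46.2 counts (SD, n = 3; -0.05 ± 0.09, adjusted p = 0.765). The strongest ID4 peak, 32.5 kb upstream, carries a composite element and had 788, 711 and 697 counts against 666, 675 and 742 (-0.08 ± 0.07, adjusted p = 0.449). The promoter peak of ID4 came closest to the threshold (360.4, 362 and 347 against 309, 319 and 232 counts, -0.30 ± 0.10, adjusted p = 0.0208).

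Of the 6 peaks with a composite element 1 passed, and their log2 fold changes ran from -0.33 to 0.24. Over all 369 such peaks 19 were lower (5.15%) and 14 higher (3.79%), beside 6.54% and 3.34% of all peaks.

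By their strongest promoter peaks, the ID genes were the most accessible of the 10. For each gene the promoter peak of highest mean count over all libraries was taken. Per 100 bp of peak in the controls, it was highest at ID2 (261 ± 19.4 normalized counts, SD, n = 3), followed by ID1 (198 ± 16.9), ID4 (176 ± 3.90) and ID3 (161 ± 6.58), so that the 4 targets held the first 4 places. SMAD5 (125 ± 9.82), BMPR1A (104 ± 8.88), SMAD1 (94.1 ± 2.06), BMP4 (91.7 ± 3.97) and BAMBI (84.6 ± 8.55) came next, and BMP2 was last (48.0 ± 5.57). Neighbours in this order had control ranges that overlapped between BMPR1A and SMAD1, SMAD1 and BMP4, and BMP4 and BAMBI, and the other neighbours did not overlap. The places of ID1 and of the middle genes depend on the peak taken. The ID1 peak ranked here was centred 990 bp upstream of the start. Its promoter peak 93 bp from the start held 135 counts per 100 bp in the controls, between ID3 and SMAD5, and that in the first exon 43.6. A narrower BMP4 promoter peak at another start held 115 counts per 100 bp in the controls, which lies between SMAD5 and BMPR1A. None of these 10 peaks passed the test between treatments.

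**Figure D4:**
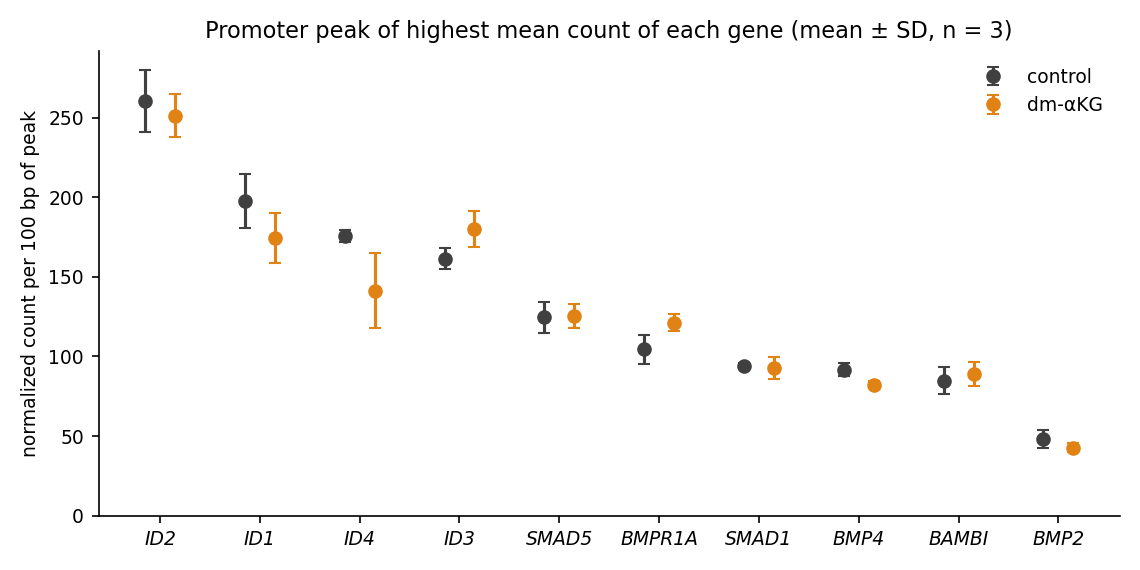
Normalized counts per 100 bp of peak (y axis, from 0) of the promoter peak of highest mean count of each gene, in order of the control level. Points are means and bars SDs of 3 libraries, black for control and orange for dm-αKG. The 4 ID genes lie between 161 and 261 in the controls and BMP2 at 48.0.

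To give 1 value per gene, the counts of all its peaks were summed and tested in 1 fit over the windows of 19587 protein-coding genes, of which 12.1% were lower and 10.7% higher at an adjusted p below 0.01. Of the 10 genes 4 were lower and 0 higher, by DESeq2 3 and 0, and at an unadjusted p below 0.05 they were 5 and 0. The ID1 window had 8394, 8396 and 8436 normalized counts in the controls and 7492, 7604 and 7632 with dm-αKG (-0.15 ± 0.03, edgeR adjusted p = 1.07e-04). That of BMPR1A had 6542, 6629 and 6634 against 5803, 5876 and 5926 (-0.17 ± 0.03, edgeR adjusted p = 4.46e-05). In both, all dm-αKG libraries lay below all controls, and the difference was larger than the spread between libraries of either group. These sums also cover neighbouring genes. Of the ID1 peaks 18 of 33, and of the BMPR1A peaks 24 of 39, were nearer to the transcript start of another protein-coding gene. Within 50 kb of another such gene lay 33 and 30 of them.

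The windows of BMP2 (1440.4 ± 40.8 and 1253 ± 63.7 counts, -0.21 ± 0.05, edgeR adjusted p = 0.00233) and BMP4 (1545 ± 55.6 and 1377 ± 55.1, -0.16 ± 0.05, adjusted p = 0.00907) were lower as well. The count of 4 was 2 when replicate 2 of either group or the first dm-αKG replicate was left out. BMP4 missed the threshold with DESeq2 (adjusted p = 0.014) and in 5 of the 6 fits that left out 1 library (all but that without control replicate 3), and BMP2 in 4 of them (all but the ones that dropped control replicate 1 or dm-αKG replicate 3). With only the peaks within 10 kb, BMP2 changed sign (0.11, adjusted p = 0.216). The windows of ID2 (-0.07 ± 0.04, adjusted p = 0.203), ID3 (0.05 ± 0.03, adjusted p = 0.265), ID4 (-0.09 ± 0.04, adjusted p = 0.082), SMAD1 (0.00 ± 0.06, adjusted p = 0.977), SMAD5 (0.04 ± 0.05, adjusted p = 0.561) and BAMBI (0.05 ± 0.06, adjusted p = 0.553) did not pass.

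**Figure D5:**
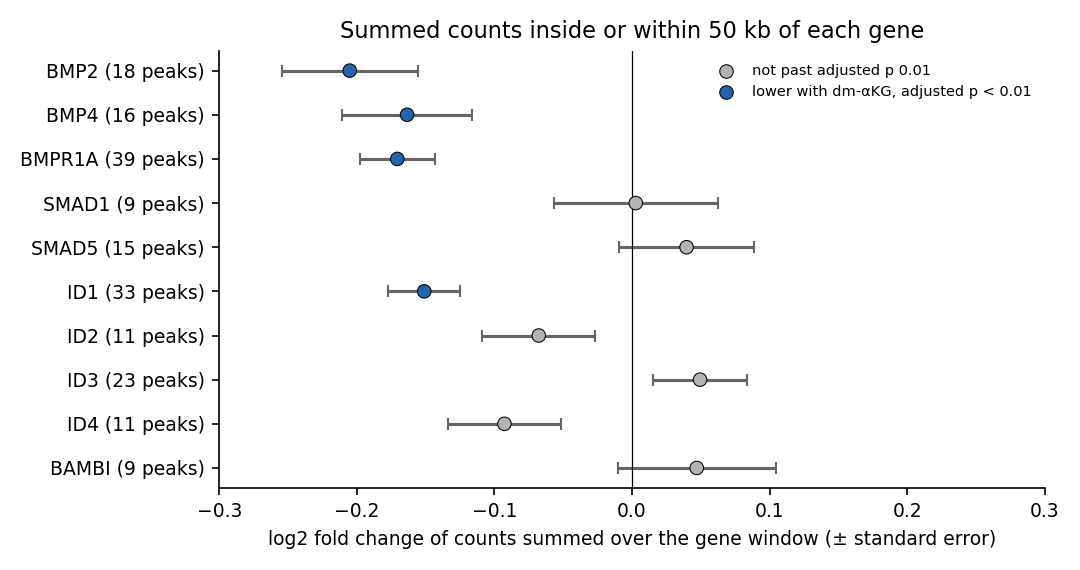
Log2 fold change ± standard error (x axis) of the counts summed over all peaks inside or within 50 kb of each gene, from the fit over 19587 gene windows. Blue points passed an adjusted p below 0.01. BMP2, BMP4, BMPR1A and ID1 lie between -0.21 and -0.15, and the other 6 genes between -0.09 and 0.05.

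Among all other genes that share no peak with the 10, the windows whose log2 levels followed BMPR1A most closely over the 6 libraries were ZHX1-C8orf76, LRP6 and ACAD9 (Pearson r = 0.999 each). With 6 libraries in 2 groups such values are common, and 1101 of 19523 genes reached r of 0.95.

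The rest of the pathway was described with 36 further genes, of which 35 had a peak and BMP5 had none. Of their 650 peaks 44 were lower (6.77%, near the 6.54% of all peaks) and 15 higher (2.31%, against 3.34%; 5 if control replicate 2 was left out, 22 if dm-αKG replicate 3 was), and 23 were called less accessible (3.54%, against 1.96%) and 2 more (0.308%, against 0.782%). By role, lower peaks made up 14 of 121 at the intracellular inhibitors (11.6%) and 16 of 176 at the receptors and co-receptors (9.09%), both above the share over all peaks. Those of the inhibitors were at SMAD6 (10 of 38) and SMAD7 (4 of 43), with 0 at SMURF1 and SMURF2. Among the receptors and co-receptors, BMPR1B, ACVR2A, ACVR2B and ENG had 0. Lower peaks were 6 of 89 at the secreted antagonists (6.74%), 5 of 128 at the ligands (3.91%), 1 of 30 at the transducers (3.33%) and 2 of 106 at the other targets (1.89%). Higher peaks numbered 2, 4, 2, 1, 0 and 6 in the same order of roles, and the 6 at the other targets (5.66%) were the only share above that of all peaks. These 6 were at DLX3 (4 of 27) and HEY1 (2 of 9), with 0 at MSX1, MSX2, DLX5 and ATOH8. The called peaks belonged to 12 genes.

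SMAD6 and SMAD7, the inhibitory SMADs that BMP signalling induces, had 6 and 4 called peaks, all less accessible. The SMAD7 peak 9027 bp upstream fell from 454 ± 19.1 to 204 ± 17.9 counts (SD, n = 3; -1.17 ± 0.10, edgeR adjusted p = 2.94e-17), and the SMAD6 peak of smallest adjusted p, downstream of the gene, fell from 137 ± 3.75 to 63.3 ± 8.87 (-1.13 ± 0.17, adjusted p = 2.19e-07). SMAD6 was also the other pathway gene with the smallest adjusted p in the window fit (-0.33 ± 0.03, adjusted p = 3.96e-08). Of the 35 windows of the other pathway genes 9 were lower and 2 higher, where 12.1% and 10.7% of all gene windows were. Of the 650 peaks in them, 385 also lay within 50 kb of another protein-coding gene.

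Among the receptors, ACVR1 and BMPR2 had 2 called peaks each, with log2 fold changes of -2.26 and -1.11 for the one of smallest adjusted p. That of ACVR1 was weak, with 32.0 ± 6.50 counts in the controls and 7.18 ± 3.11 with dm-αKG (SD, n = 3). RGMB had 1 (-1.05), nearer to a transcript start of CHD1. RGMA had 1 less accessible (-1.06), whose groups overlapped. Its more accessible peak, near CHD2 (1.52), was weak too, with 10.2 ± 5.96 counts in the controls and 29.5 ± 4.48 with dm-αKG. Of the antagonists that bind BMP or activin outside the cell, FST had 2 called peaks (-1.58, adjusted p = 3.27e-08), whereas CHRD had 1 more accessible peak at a start of THPO (1.10, adjusted p = 3.00e-05). SMAD4, the common partner of the SMADs (-1.29), and the homeobox genes MSX2 (-1.29) and DLX5 (-1.01) had 1 called peak each, all less accessible. The DLX5 peak was nearer to a transcript start of DLX6.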

How the data were processed

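ATAC-seq libraries of H9 nES cells, 3 control and 3 dm-αKG, were analysed. Samples were grouped by the treatment in their titles. The authors ran the ENCODE ATAC-seq pipeline once per treatment (Bowtie 2, MACS2, hg38), selected reproducible peaks, truncated them to 200 bp around the summit, merged both lists and counted reads with bedtools 2.28.0. They deposited raw counts per merged peak and library, with no normalization. The peak lists that the authors deposited also hold a fold enrichment over background, and these were used only to say which list contains a peak.

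Counts were tested with edgeR 4.0.16 (R 4.3.3), TMM scaling and a quasi-likelihood fit on all 171517 peaks with treatment as the only term, and p-values were adjusted by Benjamini-Hochberg. A call followed the authors' thresholds (adjusted p under 0.01 with a log2 fold change beyond 1 in either direction), and "lower" or "higher" without "called" rests on the adjusted p alone. Where a single peak is said to lose its call in a refit, that also refers to the adjusted p alone. Normalized counts are TMM counts scaled to the mean library. Standard errors were derived from the fold change and its F statistic. With 3 libraries against 3, an exact permutation test of a single peak cannot give a p below 0.1, so all tests rest on the fits over all peaks or gene windows.

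Genes were taken from GENCODE 44, and windows of neighbouring genes share peaks. Motifs were searched in hg38 with pysam 0.24.0. DESeq2 1.42.0, other scalings (RLE, total count, upper quartile, and loess offsets from limma 3.58.1), a minimum of 10 counts, a replicate block, other thresholds and windows, and fits without each library were alternatives. Fits were tested on simulated counts. For each of the 10 genes, the rule named the strongest promoter peak, the strongest peak, and the peaks with an adjusted p below 0.01, with values for at most 4. Of other pathway genes it named those with a called peak. 1 such gene is not reported here by name. The 10 genes, the other lists, the motifs and the rule were chosen with earlier results of these data known. BAMBI, ID2 and SMAD5 peaks that did not pass, neighbours of passed peaks and other pathway genes without a called peak were named after their values were seen.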

Additional observations from a re-analysis of the deposited data

How the results depend on the processing

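The count of 6 less accessible peaks was also 6 under DESeq2, every other scaling and the minimum of 10 counts, and were 4 with only peaks in both lists, 7 at an adjusted p below 0.05, 6 within 100 kb and 0 within 10 kb, where no called peak lies. Without 1 library they ranged from 4 to 6. Calls of more accessible peaks went from 0 to 1 with total count scaling, with upper quartile scaling and at an adjusted p below 0.05, and ranged from 0 to 2 without 1 library. Among the 10 genes, lower peaks numbered 13 with DESeq2, 7 within 10 kb and 12 (dm-αKG replicate 1 left out) to 22 without 1 library, against 20 and higher peaks numbered 3 with DESeq2, 10 at an adjusted p below 0.05, 3 within 10 kb and 3 (control replicate 3 or dm-αKG replicate 3 left out) to 6 without 1 library, against 5. The DESeq2 background was also smaller, at 4.1% lower and 1.56% higher, and DESeq2 gave no adjusted p for 6 of the 184 peaks. The count of higher promoter peaks was 1 to 2 without 1 library, and that of lower gene windows was 2 within 10 kb and 2 (replicate 2 of either group or the first dm-αKG replicate left out) to 3 without 1 library, against 4.

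For the other pathway genes, lower peaks numbered 28 with DESeq2, 19 within 10 kb, 68 within 100 kb and 27 (control replicate 1 left out) to 47 without 1 library, against 44. Higher peaks numbered 5 with DESeq2, 6 within 10 kb, 24 within 100 kb and 5 to 22 without 1 library, against 15. The median log2 fold change of the 184 peaks, -0.02, was -0.0050 with total counts, -0.0063 with upper quartile, -0.0067 with loess offsets, -0.0081 within 100 kb, 0.039 within 10 kb and -0.029 to -0.0045 without 1 library. The BMP2 window turned to 0.11 within 10 kb. Of the 25 peaks that passed, 14 kept an adjusted p below 0.01 in all 13 refits and 11 lost it in some, and 0 changed sign. The called peaks of BMPR1A (log2 fold change -1.16 to -0.88) and SMAD5 (-1.24 to -0.90) kept it but fell below 2-fold in some refits. Where a call was lost or a count moved, the cause was not tested.

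Replicate numbers did not pair the libraries. The deviations of same-numbered libraries from their group means correlated at -0.016, -0.00090 and 0.013. With the replicate number as a block, the 6, 0, 20 and 5 calls above were again 6, 0, 20 and 5.

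Depth limits weak peaks most. Of the 184 peaks 174 reached 10 counts in every library, and the lowest control mean was 8.48 normalized counts. A peak that did not pass was not shown to be unchanged.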
